A study of Mus musculus with 35 samples.

Results

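The genes described here are those whose RNA stood on the same side of the somatic tissues in both gonads of adult C57BL/6J mice. RNA-seq libraries were made from ovary (3 libraries) and testis (3), and from brain (6), cerebellum (6), heart (5) and colon (6) of females and males, without any treatment or genetic change stated in the labels. A gene was kept as higher when the mean of the ovary and the mean of the testis each exceeded the mean of every somatic tissue, and as lower when each fell under all of them. Of 29911 genes with enough reads for testing, 2561 (8.56%) were kept as higher and 1824 (6.1%) as lower. Together 4385 genes (14.7%) met the rule. Taken singly, the ovary lay above every somatic mean in 18.3% of tested genes and the testis in 33.8%. They lay below every one in 13.9% and 22.6%. The equal-weight mean of both gonads was then compared with the equal-weight mean of the 4 somatic tissues. Another 997 genes above and 328 genes below the somatic means met the rule with too few reads to be tested, and they carry no statistic here.

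Ovary and testis arise from the same embryonic ridge. Each holds germ cells, supporting cells that surround them (granulosa cells in the ovary, Sertoli cells in the testis) and steroid-making cells (theca and luteal cells, Leydig cells). Germ cells pass through meiosis, use small RNAs of the PIWI pathway against transposons and keep a chromatin state of their own. The steroid-making cells convert cholesterol to androgens and oestrogens under the control of pituitary hormones. In adults, meiosis goes on in the testis while the oocytes of the ovary rest in prophase. In whole organs, a larger share of a cell type and more RNA in each of its cells cannot be told apart, and that holds for every level given below.

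Levels are given as FPKM, CPM (counts scaled to a fixed library size), normalised by the trimmed mean of M values (TMM) and divided by the length of a gene's exons in kilobases. Differences are log2 differences of the fitted group means with their standard errors, tested with edgeR's quasi-likelihood test and adjusted by the Benjamini-Hochberg method over all 29911 genes, with a threshold of 0.05. Values after ± are SDs for levels and standard errors for log2 differences. The stricter pairwise test required each gonad to differ in the same direction from each somatic tissue, in 8 comparisons, and took the largest of the 8 p-values before adjustment. Total counts ran from 11742417 to 36194255 per library, with 18035978 to 28081608 in ovary and 28459258 to 30925443 in testis.

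Between the gonads, 9 of 10 tested ovary markers were called higher in ovary and 1 in testis. All 10 tested testis markers were called higher in testis. The spermatid transcript Prm1, a protamine that packs sperm DNA, was at 4920 to 5902 FPKM in the testis libraries and at 0.144 to 0.38 FPKM in those of the ovary, no higher than in some somatic libraries. Foxl2, a granulosa cell factor, was at 24.3 to 41.5 FPKM in ovary and at most 0.136 FPKM in testis. Gdf9, an oocyte growth factor, went against the labels with 113 to 398 FPKM in heart, and its locus shares exon bases with Uqcrq on the other strand. The testis marker Cldn11 was at 16.2 to 19.5 FPKM in testis, under its 33.1 to 61.3 in brain and 33.1 to 70.3 in cerebellum. Among the libraries, female heart 3 stood apart with 2481 FPKM of the atrial gene Nppa (60.2 to 127 in the other hearts) and 622 FPKM of the adipocyte gene Adipoq (at most 2.45 in the others). Testis library 1 held 43.3 FPKM of the epididymal gene Crisp1 against 0.107 and 2.47 in the other testis libraries. Ovary library 1 held less of Adipoq (3.51 FPKM against 36.9 and 57.8 in the other ovary libraries) and of the zona pellucida gene Zp3 (0.579 against 3.54 and 3.72). Without female heart 3 the test called 2546 of the higher and 1517 of the lower genes, without testis library 1 it called 2468 and 1559, and without ovary library 1 it called 2510 and 1672.

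Of the 2561 genes kept as higher, 2517 (98.3%) also passed the test of gonads against soma, in which 31.6% of all genes were called higher. Of the 1824 kept as lower, 1579 (86.6%) passed, against 23% called lower among all genes. The rule uses this same contrast, so these shares describe the selection. The median log2 difference was 2.31 in the called higher genes (quartiles 1.20 and 4.35) and −1.75 in the called lower genes (quartiles −2.91 and −1.16), beside 0.18 over all genes tested. The pairwise test passed 359 higher genes (1.20% of all tested) and 219 lower genes (0.732%). Every gonad library exceeded every somatic library in 559 genes (1.87% of all tested) and lay under every one in 349 (1.17%). Genes at the edge of the rule had almost no margin. Eef2, an elongation factor of translation, entered at 579 ± 32 FPKM in testis over 578 ± 114 in heart, while Srp72 missed it with 35.4 ± 2.09 FPKM in ovary against 35.4 ± 2.71 in brain. On the lower side Atp6v1b2 entered at 28.9 ± 7.43 FPKM in ovary under 29 ± 3.26 in colon, and Glud1 missed at 50.4 ± 4.32 against 50.4 ± 5.63 in the same tissues.

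**Figure D1:**
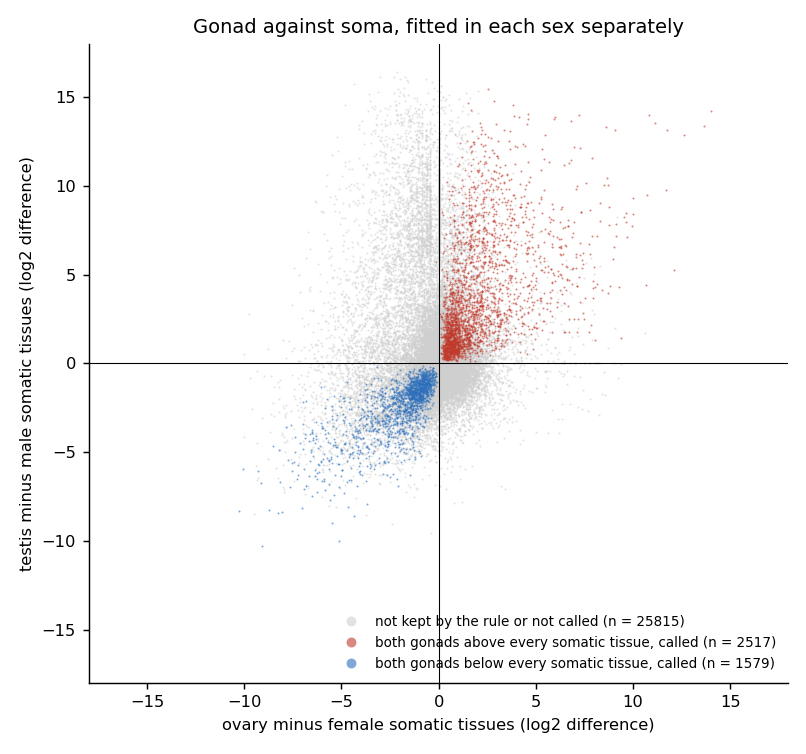
Each point is a gene, with the log2 difference of ovary minus female somatic tissues on the x axis and of testis minus male somatic tissues on the y axis, from fits of each sex that share no library. Of the 2517 called higher genes (red) all but 1 lie in the upper right quadrant, and the 1579 called lower genes (blue) all lie in the lower left one, with the other genes in grey.

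The margins were mostly narrow. The lower gonad mean was at least 1 log2 unit above the highest somatic mean in 538 of the higher genes, at least 3 units in 114 and at least 5 units in 35. Colon was the nearest somatic tissue for 767 higher genes, brain for 665, heart for 576 and cerebellum for 509. Both gonads reached 1 FPKM in 1388 of the higher genes and all 4 somatic means were under 1 FPKM in 1309, but both conditions held for only 180. On the lower side, a margin of 1 unit or more was found for 303 genes and of 5 units for 3.

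Steroid synthesis had more genes past the pairwise test than any other pathway list examined. Of its 26 tested genes 19 were called higher and 4 lower, with a median log2 difference of 3.35. As higher, 15 met the rule, and 13 of these also passed the pairwise test. Of the 15 genes 10 were higher in ovary than in testis, 4 in testis and 1 neither way, at a median ovary minus testis difference of 1.41. The route begins with the delivery of cholesterol to mitochondria by Star and its cleavage by Cyp11a1. Cyp11a1 (ENSMUSG00000032323, GRCm38 chr9:58014997-58027022) was at 723, 1354 and 1509 FPKM in the ovary libraries and at 251, 244 and 375 in the testis libraries, while the 23 somatic libraries ran from 0.0738 to 1.18 with a median of 0.326. All 6 gonad libraries lay far above the somatic range, the ovary above the testis. The lower gonad mean was 404 times the highest somatic mean, which was that of brain, and the log2 difference was 10.74 ± 0.19 (edgeR adjusted p = 1.77e-23).

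Star, named here after its values were seen, was at 51.4, 28.1 and 44.1 FPKM in ovary and at 78.1, 64.3 and 92.8 in testis. Its somatic libraries ran from 0.585 through a median of 1.13 to 5.86 FPKM, the highest in heart, so the groups did not overlap but the background was well above 0. The difference was 5.51 ± 0.13 (adjusted p = 3.05e-21 by edgeR).

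Hsd3b1, the enzyme that turns pregnenolone into progesterone, was at 580, 673 and 766 FPKM in ovary and at 109, 78.5 and 100 in testis. Somatic libraries held 0 to 0.2 FPKM (median 0.0247), from 74 reads in all 23 together. It was among the most strongly separated genes, at 14.14 ± 0.18 log2 units (edgeR adjusted p = 4.51e-24), and it was 2.81 ± 0.25 log2 units higher in ovary than in testis.

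The order was the other way round for Cyp17a1, which makes androgen precursors. Its ovary libraries were at 111, 79.5 and 179 FPKM and its testis libraries at 393, 450 and 543, with somatic libraries from 0 to 0.905 (median 0.0449). The gonads were 12.42 ± 0.28 log2 units above soma (adjusted p = 5.7e-21, edgeR), and the ovary fell 1.91 ± 0.37 units under the testis.

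The last steps divided the gonads further, though each of the genes named for them here, chosen after their values were seen, was above soma in both. Hsd17b1, which forms oestradiol from oestrone, was at 34.8 ± 9.39 FPKM in ovary and 0.641 ± 0.0732 in testis. Hsd17b3, which forms testosterone, was at 1.76 ± 1.72 and 64.4 ± 10.3. Aromatase (Cyp19a1), which converts androgens to oestrogens, was nearer to balance, at 2.81 ± 1.78 FPKM in ovary and 0.974 ± 0.115 in testis, with 29 reads in brain and none in the 17 other somatic libraries. The ovary minus testis difference was 5.75 ± 0.55 for Hsd17b1, −5.21 ± 0.59 for Hsd17b3 and 1.53 ± 0.46 for Cyp19a1 (edgeR adjusted p = 1.7e-09, 2.16e-06 and 0.00907). The opposite direction was seen for Hsd11b1, which regenerates active glucocorticoid: 1.18 ± 0.495 FPKM in ovary and 3.18 ± 0.734 in testis lay under the lowest somatic mean, 6.79 ± 2.45 in colon, and the difference of gonads minus soma was −2.77 ± 0.20 (edgeR adjusted p = 7.3e-12).

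Receptors for the hormones that drive the gonads were on the same side. Lhcgr, the receptor for luteinising hormone, was at 38, 67.4 and 65.3 FPKM in ovary, at 20.6, 18.8 and 24.9 in testis, and at 0 to 1.07 in somatic libraries (median 0.149). No gonad library came near the somatic range, in which brain and cerebellum held 219 of the 221 reads. Fshr, the receptor for follicle-stimulating hormone, was at 2.89 ± 1.55 FPKM in ovary and 0.817 ± 0.0144 in testis with 3 somatic reads, all in brain. The prolactin receptor Prlr was balanced, at 18.5 ± 5.13 and 18.1 ± 2.95 FPKM, over 3.18 ± 1.62 in colon. These 3 receptors were named after their values were seen.

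Nr5a1 encodes steroidogenic factor 1, a nuclear receptor needed for gonad formation and for transcription of steroid enzymes. It stood with regulators of the gonadal somatic cells, a list of 40 tested genes with a median of 2.90. In this list 29 were called higher, 3 lower and 15 met the rule as higher. Of the 15 genes 9 were higher in ovary, 5 in testis and 1 neither way, at a median ovary minus testis difference of 1.29. Nr5a1 (ENSMUSG00000026751, chr2:38692654-38714661) was at 24.6, 43.5 and 42 FPKM in ovary and at 18.1, 18.1 and 20.7 in testis. Somatic libraries held 0 to 0.0262 FPKM with a median of 0, from 12 reads, 9 of them in brain. Gonads and soma were thus separated almost as presence and near absence, and the difference was 12.77 ± 0.23 (edgeR adjusted p = 9.19e-19). For genes with so few somatic reads, the fitted value depends on the prior count of the fit and is not a bound. Their standard errors are not reliable either.

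Amhr2, the receptor for anti-Müllerian hormone, was at 37.1, 41.7 and 34.6 FPKM in ovary, at 58.3, 64.5 and 60.4 in testis and at 0.024 to 0.422 in somatic libraries (median 0.187). Its gonads were close to each other, −0.69 ± 0.26 ovary minus testis, and 8.21 ± 0.16 above soma (adjusted p = 1.37e-22 by edgeR). Nr0b1, an X-linked partner of steroidogenic factor 1, was at 1.87 ± 0.0901 FPKM in ovary and 7.59 ± 0.792 in testis with 14 somatic reads. Inha, the inhibin subunit that restrains follicle-stimulating hormone, was at 70.2 ± 20.8 and 8.86 ± 0.672 FPKM over at most 1.2 ± 0.23 in a somatic mean.

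A few members of these lists had somatic libraries inside the gonad range. Wt1, a factor of gonad and mesothelium, was at 54.5 ± 7.37 FPKM in ovary, 15.8 ± 1.06 in testis and 8.33 ± 4.46 in heart, where 1 library reached 16. It passed the test of gonads against soma (6.59 ± 0.28, edgeR adjusted p = 1.51e-16) and not the pairwise test (adjusted p = 0.41). Esr1, the oestrogen receptor, was at 18.5 ± 1.77 and 10.4 ± 1.22 FPKM with 1 somatic library at 11.6, which was female heart 3, and 0.609 to 1.33 in the other hearts. Inha, Wt1 and Esr1 were named after their values were seen.

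**Figure D2:**
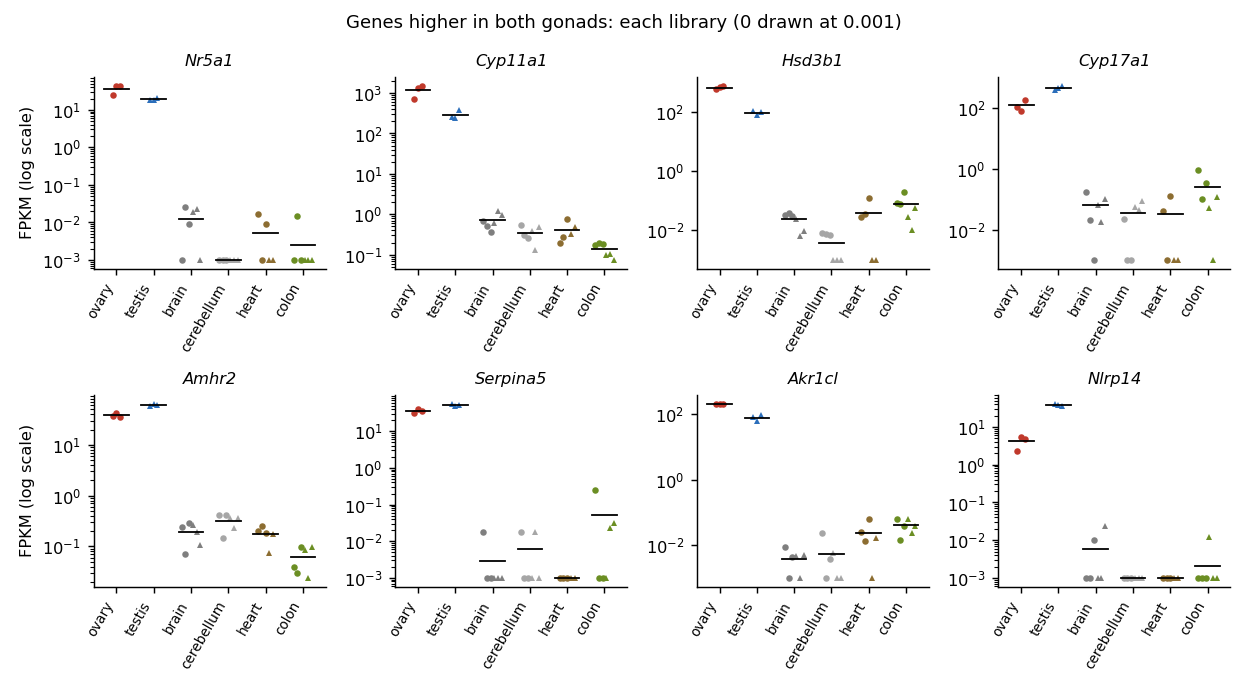
Levels of 8 higher genes in each library (FPKM, log scale; circles female, triangles male, bars tissue means, 0 drawn at 0.001). All 6 gonad libraries of Cyp11a1, Nr5a1, Hsd3b1 and Amhr2 lie above every somatic library.

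The remaining genes with the widest margins had less familiar roles in both gonads. Akr1cl, an aldo-keto reductase, had the widest margin of all protein-coding genes named: 209, 203 and 205 FPKM in ovary, 79.7, 60.7 and 96.5 in testis and 0 to 0.0648 in somatic libraries (median 0.00884), so that its lower gonad mean was 1954 times the highest somatic mean. Its gonads were 13.51 ± 0.21 above soma (edgeR adjusted p = 2.01e-24). The processed pseudogene Gm8550 lies inside its locus on the other strand, at chr1:65028080-65028732, and followed it with 22 ± 6.34 FPKM in ovary, 10.8 ± 2.98 in testis and 5 somatic reads. Whether reads were assigned to genes by strand is not given in the sources used here, so reads of Gm8550 and of Akr1cl cannot be told apart. Nr5a1, Star, Wt1, Chrm2, Mcm7, Chaf1a, Pou5f1, Slc8a1 and Bhlhe40 also share exon bases with a gene on the other strand.

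Serpina5, a secreted inhibitor of serine proteases, was at 32.4, 40.3 and 35.9 FPKM in ovary, at 56.4, 48.8 and 51.4 in testis and at 0 to 0.256 in soma, where the median was 0 and 9 of 12 reads were in colon. Ovary and testis did not pass the test of a difference (−0.53 ± 0.32, edgeR adjusted p = 0.151), and both were 12.46 ± 0.27 above soma (adjusted p = 8.07e-19). Bpifb5 was likewise near balance, at 12 ± 4.13 and 15.8 ± 3.47 FPKM with 23 somatic reads. Cst8, a cystatin known from the male reproductive tract, was at 18.3, 12.6 and 14.6 FPKM in ovary and 327, 286 and 297 in testis, with 14 somatic reads. The highest of these, 327 FPKM, was in testis library 1, whose Crisp1 was also high. Cst8 is itself among the 6 tested epididymal markers and made up most of their summed level, which was 12.9 to 18.6 FPKM in ovary, 291 to 384 in testis and at most 2.04 in soma. Of the others, Crisp1 was at 0 to 0.136 FPKM in ovary, and Spink8 reached 8.57 FPKM in testis library 1 against 0.417 and 0.596 in the other testis libraries. The part of epididymal RNA in these results was not tested.

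Outside protein-coding genes, the lncRNA 1700016F12Rik (chr5:96849505-96852938) had no read in any of the 23 somatic libraries. It was at 5.26, 6.43 and 5.41 FPKM in ovary and at 2.95, 1.84 and 2.9 in testis, which made both gonads at least 48.7-fold higher than a floor of 3 reads over the libraries of a tissue. Gm20629 was at 2.6 ± 0.402 and 3.86 ± 0.979 FPKM with 9 somatic reads. 4933427D06Rik was at 0.197, 1.67 and 1.55 FPKM in ovary and 1.51 ± 0.278 in testis with 5 somatic reads, its lowest value being that of ovary library 1. Of the called higher genes 64.6% were protein-coding, 23.1% lncRNAs and 6.32% pseudogenes, beside 60.8%, 20.9% and 7.41% of all genes tested. Of the 359 that passed the pairwise test, 312 were protein-coding, 33 lncRNAs and 5 pseudogenes.

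Short stretches of promoter are shown for Cst8 and Amhr2, genes of the higher set whose window holds the letters CAAGGTCA. Steroidogenic factor 1 is known to bind this sequence. Other higher genes that hold it are not shown, such as Zfp57 (position 7, on the other strand). Windows ran from 250 bases before to 50 after the start of a gene (RefSeq, GRCm38.p6), were searched on both strands, and were found for 1306 of 1626 called higher protein-coding genes (80.3%). The capitals mark the motif. Cst8 holds it at position −48 from its start, in chr2:148798745-148798844 on the plus strand, and Amhr2 at position −232, in chr15:102445117-102445188 on the plus strand.
Cst8: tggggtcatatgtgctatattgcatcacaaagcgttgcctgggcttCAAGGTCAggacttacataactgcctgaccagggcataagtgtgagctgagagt
Amhr2: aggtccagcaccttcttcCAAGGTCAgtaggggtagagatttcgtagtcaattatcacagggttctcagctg
The motif was in 16 of the 1306 windows (1.23%) and in 1.12% of the windows of all protein-coding genes tested. Among the genes that passed the pairwise test it was in 7 of 261 windows (2.68%), and it was in 0 of 19 windows of the steroid synthesis list and 1 of 26 of the gonadal somatic regulators. Windows were found for 78.6% of all tested protein-coding genes, under the 80% set for such comparisons, so a comparison of the shares is void. A match is a description of the letters only.

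Germ cell genes made up another part of the higher set. Of 28 regulators of germ cell RNA, mostly of the PIWI pathway, 25 were called higher and 2 lower, with a median log2 difference of 4.45, and 10 met the rule. Of these 10 genes 9 were higher in testis than in ovary and 1 passed neither way, at a median ovary minus testis difference of −5.78. Nlrp14, needed for early embryo development, was at 2.29, 5.61 and 4.95 FPKM in ovary and at 41.6, 39 and 36.8 in testis, with 4 reads in all somatic libraries together. Tdrd5, a Tudor-domain protein of the PIWI pathway, had the mildest imbalance of the RNA regulators named here: 7.76, 8.85 and 8.88 FPKM in ovary and 33.8, 32.4 and 29.7 in testis over 0 to 0.584 in soma (median 0.262). It was 7.29 ± 0.22 above soma (edgeR adjusted p = 2.65e-19). Gtsf1, a PIWI cofactor, was at 1.27 ± 0.349 FPKM in ovary against 185 ± 12.8 in testis, and Fkbp6, a chaperone of the same pathway, at 0.739 ± 0.449 against 21.7 ± 1.37. Mael, named after its values were seen, spanned the widest range, 0.989 ± 0.299 against 572 ± 34.1 FPKM, and its ovary level was still over the highest somatic mean, 0.264 ± 0.197 in cerebellum. Spermatid transcripts Prm1 and Tnp1 were at most 0.38 and 0.44 FPKM in the ovary libraries, under the highest colon libraries (6.39 and 3.31).

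Fewer of the meiotic genes met the rule than were called higher. In the list of chromosome axis and recombination genes 35 of 42 were called higher and none lower, at a median of 3.67, while 9 met the rule and 1 passed the pairwise test. Of the 9 genes 7 were higher in testis than in ovary and none in ovary, at a median of −3.30. The gene past the pairwise test was Tex15, needed for meiotic recombination and transposon silencing, at 2.41, 0.735 and 0.886 FPKM in ovary and 9.27, 14.4 and 7.78 in testis, over 0 to 0.542 in soma (median 0.108). Its difference was 6.16 ± 0.31 (adjusted p = 9.7e-15 by edgeR). Dmc1, the meiotic recombinase, met the rule narrowly at 0.33 ± 0.118 FPKM in ovary over 0.213 ± 0.122 in brain, with 5.69 ± 0.37 in testis, and did not pass the pairwise test. Mnd1, a partner of Dmc1, was balanced between the gonads at 3.58 ± 0.916 and 3.37 ± 0.489 FPKM but overlapped the heart, where the highest library was at 3.14.

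Of 27 transcription and identity factors of germ cells, 22 were called higher, 1 was called lower and 14 met the rule, with a median of 4.50. Of the 14 genes 10 were higher in testis, 1 in ovary and 3 neither way, at a median ovary minus testis difference of −2.80. Figla, which drives the zona pellucida genes of oocytes, was at 0.824, 0.63 and 0.887 FPKM in ovary and at 0.914, 0.63 and 0.773 in testis, with 5 somatic reads, all in brain. The gonads could not be separated (0.02 ± 0.69) and both were above soma by 6.28 ± 0.52 (edgeR adjusted p = 5.41e-08). Pou5f1, the pluripotency factor OCT4, was low in both, at 0.315 ± 0.0976 and 0.495 ± 0.212 FPKM, with 1 somatic read. These levels rest on 112 gonad reads for Figla and 156 for Pou5f1.

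Genes of the cell cycle and of DNA replication were mostly called higher, and the share of dividing cells was not measured. All 25 tested mitotic genes were called higher (median 3.31), 16 of them within the rule, and 28 of 29 DNA replication genes were called higher (median 1.47), 17 within the rule. Of the 16 mitotic genes 15 were higher in testis than in ovary (median ovary minus testis difference −2.30), and of the 17 replication genes 11 were higher in testis and 2 in ovary (median −0.74). Colon was the highest somatic tissue for the mitotic genes named. Cdk1, the kinase that starts mitosis, was at 16.5, 20.2 and 17.4 FPKM in ovary and 31.8, 31.2 and 32.8 in testis, against 0.536 to 9.61 in soma (median 1.1), and the colon mean was 7.68 ± 1.27. Groups did not overlap, and the difference was 3.82 ± 0.14 (edgeR adjusted p = 7.47e-18). Ube2c, a ubiquitin enzyme of the anaphase-promoting complex, was the remaining mitotic gene of the 16, at 11.1 ± 2.49 and 11 ± 1.87 FPKM over 5.84 ± 1.93 in colon. The spindle checkpoint gene Bub1b was at 7.6 ± 2.44 and 17.6 ± 0.643 FPKM over 4.03 ± 0.418 in colon.

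In DNA replication, Mcm7, a subunit of the replicative helicase, was at 16.5, 22.1 and 19.7 FPKM in ovary, 64.9, 63.5 and 66.7 in testis and 5.55 to 8.33 in soma (median 6.1). The somatic tissues were nearly equal, from 5.95 ± 0.271 in brain to 6.73 ± 1.01 in colon, and the difference was 2.50 ± 0.07 (adjusted p = 2.51e-20, edgeR). Chaf1a, which places histones behind the fork, was at 4.66 ± 1.91 FPKM in ovary and 53.3 ± 1.19 in testis, and the polymerase gene Pole at 2.12 ± 0.683 and 11 ± 0.66. For repair by homologous recombination and the Fanconi pathway 30 of 36 genes were called higher, 1 lower, and 14 met the rule (median 1.13).

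The promoters of replication genes are shown because this list held the letters GCGGGAAA, a site that E2F factors of the G1/S transition are known to bind, in 5 of its 23 windows (21.7%). All 5 genes met the rule as higher, and the list was chosen for display after its share was seen. The site was in 0 of 21 windows of the mitotic list, 5 of 34 of the meiotic list and 4 of 26 of the recombination and Fanconi list. The site was in 1.75% of the windows of all tested protein-coding genes, in 3.45% of those of higher genes and in 0.841% of those of lower genes, shares that are descriptions for the reason given above; for the replication list, windows were found for 79.3% of the genes. Capitals mark the site. The stretches lie at chr5:138171995-138172094 (minus strand) for Mcm7, chr1:20820263-20820339 (minus) for Mcm3, chr11:98907967-98908066 (plus) for Cdc6, chr8:95633472-95633571 (plus) for Gins3 and chr5:151651159-151651254 (minus) for Rfc3.
Mcm7: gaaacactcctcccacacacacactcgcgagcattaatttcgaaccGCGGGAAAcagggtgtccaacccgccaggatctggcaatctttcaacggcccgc
Mcm3: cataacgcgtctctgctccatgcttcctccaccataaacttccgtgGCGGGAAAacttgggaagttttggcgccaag
Cdc6: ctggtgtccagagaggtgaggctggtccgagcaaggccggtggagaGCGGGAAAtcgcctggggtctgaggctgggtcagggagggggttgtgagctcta
Gins3: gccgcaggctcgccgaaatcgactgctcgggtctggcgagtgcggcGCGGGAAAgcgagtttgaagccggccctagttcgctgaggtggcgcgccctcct
Rfc3: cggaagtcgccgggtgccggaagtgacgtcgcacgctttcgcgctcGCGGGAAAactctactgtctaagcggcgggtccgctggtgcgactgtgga
The E-box TCACGTGA, known from germ line promoters, was in 1.61% of the windows of higher genes, 1.68% of those of lower genes and 1.54% of all.

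Chromatin lists were mixed. Of 14 writers and erasers of DNA methylation 8 were called higher and 6 lower (median 0.56), with 5 within the rule. Zfp57, which protects methylation at imprinted genes, was at 5.31, 5.62 and 4.37 FPKM in ovary, 6.8, 7.07 and 6.35 in testis and 0.161 to 1.77 in soma (median 0.737), a difference of 3.12 ± 0.16 (edgeR adjusted p = 8.99e-15). Uhrf1, the cofactor of maintenance methylation, was at 7.16 ± 2.05 and 29.2 ± 0.226 FPKM over 3.42 ± 0.976 in colon, and the de novo enzyme Dnmt3b at 0.984 ± 0.242 and 1.03 ± 0.383 over 0.5 ± 0.147. The Polycomb complex PRC1.6 had 10 of 18 genes called higher and 5 lower (median 0.35), and 4 met the rule. In a list of 20 chromatin regulators of the germ line 14 were called higher, 3 lower and 6 met the rule (median 1.22).

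The most abundant higher genes of the pairwise test included genes of other roles. Aldh1a1, which makes retinoic acid, was at 525, 658 and 690 FPKM in ovary and 370, 271 and 466 in testis against 19.2 to 267 in soma (median 75.2), the highest somatic mean being 166 ± 8.95 in cerebellum. Its difference was 2.87 ± 0.15 (adjusted p = 7.8e-15). In the retinoic acid pathway 10 of 19 genes were called higher and 3 lower (median 0.26), and 5 higher genes and 1 lower gene met the rule. The lower gene was the receptor Rarb, named after its values were seen, at 1.24 ± 0.404 and 0.417 ± 0.173 FPKM under 2.65 ± 0.579 in colon. Gstm2, a glutathione transferase, was at 328 ± 65.9 and 627 ± 180 FPKM over 119 ± 28.4 in heart, and Pabpc1, the poly(A)-binding protein, at 279 ± 32.8 and 740 ± 40.4 over 156 ± 23.7. Gm44344, a miRNA gene of 129 bases, was at 2.39 ± 0.258 and 831 ± 138 FPKM with 1 somatic read, and it shares exon bases with the histone gene Hist1h2aa on the other strand, so the sources of its reads cannot be told apart. Cholesterol synthesis, which feeds the steroid route, was spread around 0: 8 of 22 genes were called higher and 4 lower, at a median of 0.12.

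**Figure D3:**
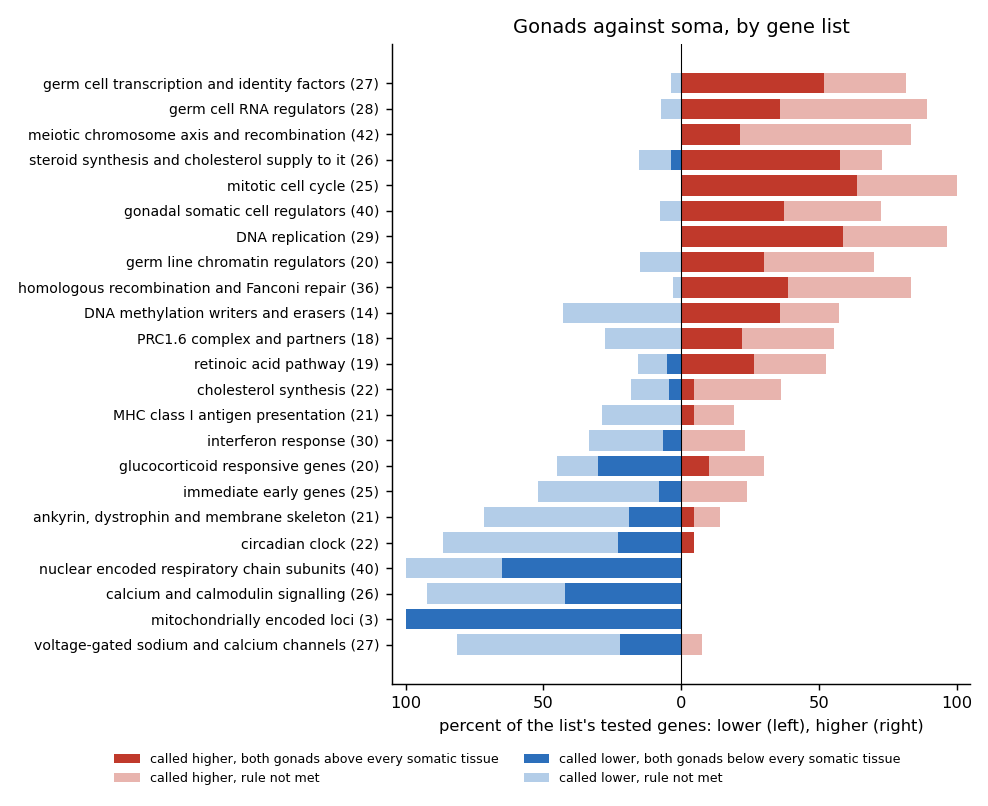
Percent of the tested genes of each list (their number in parentheses) called lower (bars to the left) or higher (to the right), with those that met the rule in full colour and the others in pale colour. All 25 mitotic genes are called higher and 16 met the rule, while all 40 nuclear encoded respiratory chain genes are called lower and 26 met it.

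Among the lower genes, the respiratory chain was low throughout: all 40 nuclear encoded subunits tested were called lower (median −1.37), 26 met the rule, and none passed the pairwise test. Cox4i1, a subunit of cytochrome c oxidase, was at 403, 442 and 362 FPKM in ovary, 388, 368 and 432 in testis and 469 to 6127 in soma (median 840). The groups did not overlap, ovary and testis could not be separated (0.02 ± 0.29), and the difference was −1.52 ± 0.18 (edgeR adjusted p = 7.57e-08). The 3 nearest somatic tissues were level, at 746 ± 76.7 to 818 ± 199 FPKM, and heart stood at 3681 ± 1607. Cox5b and Ndufb9, of complexes IV and I, were at 123 ± 6.19 and 106 ± 18.5 FPKM in ovary and at 136 ± 15.6 and 99.3 ± 11 in testis.

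Mitochondrially encoded RNA went the same way, and the deposited annotation joins its genes into a few loci, of which 3 entered the list and all 3 were called lower (median −2.12). The locus under mt-Co1 was at 735, 396 and 526 FPKM in ovary, 578, 699 and 617 in testis and 1384 to 16013 in soma (median 2218). Its difference was −2.44 ± 0.23 (adjusted p = 9.98e-10 by edgeR). Loci of the mitochondrial genome on both strands share bases, so the mt-Nd5 and mt-Nd6 values are not independent of it. Together, mitochondrial loci took 0.787% to 1.77% of all reads in the gonad libraries and 2.35% to 13.6% in the somatic ones. Of 11 tested features on the mitochondrial chromosome 10 met the rule as lower.

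Several of the lower genes with the widest margins are known from neurons, glia or muscle. Aqp4, the water channel of astrocytes, was at 0.022, 0.0119 and 0.0316 FPKM in ovary, 0.0154, 0.0144 and 0.0438 in testis and 0.599 to 99.4 in soma (median 38.2). Even heart and colon, at 1.13 ± 0.409 and 1.6 ± 1.21 FPKM, were well above both gonads, and the difference was −8.50 ± 0.40 (edgeR adjusted p = 1.47e-15). Chrm2, the muscarinic receptor of the heart, was at 0.0461 ± 0.0356 and 0.0401 ± 0.0197 FPKM under 1.96 ± 1.1 in cerebellum, so that the lowest somatic mean was 42.7 times the higher gonad mean. Cdh19, a cadherin of nerve-ensheathing glia, was at 0.0757 ± 0.0392 and 0.0754 ± 0.0363 FPKM while the somatic means stood between 2.33 and 3.51. These 3 genes rest on 21, 45 and 50 reads over the 6 gonad libraries.

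Car8, a protein of Purkinje cells that modulates the inositol trisphosphate receptor, was at 0.187, 0.189 and 0.158 FPKM in ovary, 0.0702, 0.0985 and 0.0995 in testis and 2.88 to 298 in soma (median 6.37). Gonads fell by 6.77 on the log2 scale (SE 0.24, edgeR adjusted p = 6.07e-18). Eef1a2, the elongation factor of muscle and neurons, had the widest range: 0.445 ± 0.0536 FPKM in ovary and 0.21 ± 0.213 in testis, 4.87 ± 0.963 in colon and 1796 ± 689 in heart. Ddc, which makes dopamine and serotonin, was at 0.182 ± 0.0112 and 0.164 ± 0.0811 FPKM under 2.26 ± 1.4 in cerebellum. Inpp5j, a phosphatase of inositol lipids, was at 0.525 ± 0.352 and 0.406 ± 0.0546 FPKM under 5.67 ± 2.22 in heart. Car4, a carbonic anhydrase of vessel and gut surfaces, was higher in testis than in ovary, 1.44 ± 0.401 against 0.273 ± 0.217 FPKM.

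The lncRNA Gm26788 was at 0.664, 0.79 and 0.769 FPKM in ovary, 0.774, 0.716 and 0.826 in testis and 2.54 to 7.56 in soma (median 3.91). Its gonad libraries were tightly grouped and lay under every somatic one, at −2.49 ± 0.12 (edgeR adjusted p = 2.82e-15). Gm15912 was at 0.371 ± 0.113 and 0.297 ± 0.0449 FPKM under 1.34 ± 0.303 in cerebellum. Of the called lower genes 77% were protein-coding, 13% lncRNAs and 3.99% pseudogenes, and 202, 12 and 0 of these kinds were among the 219 that passed the pairwise test.

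Most genes of calcium handling were called lower. Of 26 genes of calcium and calmodulin signalling 24 were called lower and none higher (median −1.51), with 11 within the rule. Slc8a1, the sodium-calcium exchanger, was at 2.55, 3.95 and 4.53 FPKM in ovary, 1.41, 1.32 and 1.96 in testis and 12.6 to 52.3 in soma (median 19). All gonad libraries lay under all somatic ones, at −3.27 ± 0.14 (edgeR adjusted p = 2.56e-16). Ryr2, the calcium release channel of heart and neurons, was at 0.412 ± 0.0447 and 0.0283 ± 0.00973 FPKM under 1.17 ± 0.539 in colon. Camk2d, a calmodulin-dependent kinase, was at 9.65 ± 1.13 and 4.47 ± 0.549 FPKM under 18.1 ± 0.845 in cerebellum. Atp2a2, the calcium pump of the reticulum, was level between the gonads, at 25.9 ± 4.99 and 25.4 ± 1.15 FPKM, with colon at 45.9 ± 4.13 and heart at 1830 ± 645. Ppp3r1, a calcineurin subunit, met the rule with almost no margin, 12.3 ± 0.701 FPKM in ovary under 12.8 ± 1.82 in colon and 12.8 ± 1.94 in heart. Atp2a2 and Ppp3r1 were named after their values were seen.

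Voltage-gated sodium and calcium channels had 22 of 27 genes called lower and 2 higher (median −2.21) and 6 within the rule. Cacna1c, the L-type calcium channel of heart and smooth muscle, was at 1.59 ± 0.517 and 0.319 ± 0.0129 FPKM under 2.73 ± 0.905 in colon. No read of the sodium channel Scn9a was found in any gonad library, and heart held 6 reads, so its call depended on single heart libraries: the adjusted p was 1 without female heart 3 and also without male heart 2. In the membrane skeleton list 15 of 21 genes were called lower and 3 higher (median −0.78). Ank3, an ankyrin that anchors channels, was at 4.61 ± 0.355 and 3.32 ± 0.088 FPKM under 13.9 ± 4.61 in heart, a difference of −2.91 ± 0.14 (adjusted p = 3.1e-15, edgeR). Ank1 was at 0.363 ± 0.0942 and 0.215 ± 0.0474 FPKM under 0.792 ± 0.112 in colon. Epb41l2, named after its values were seen, was the list's higher gene within the rule, at 37 ± 3.87 FPKM in ovary and 74.2 ± 1.31 in testis over 33.4 ± 2.42 in brain.

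**Figure D4:**
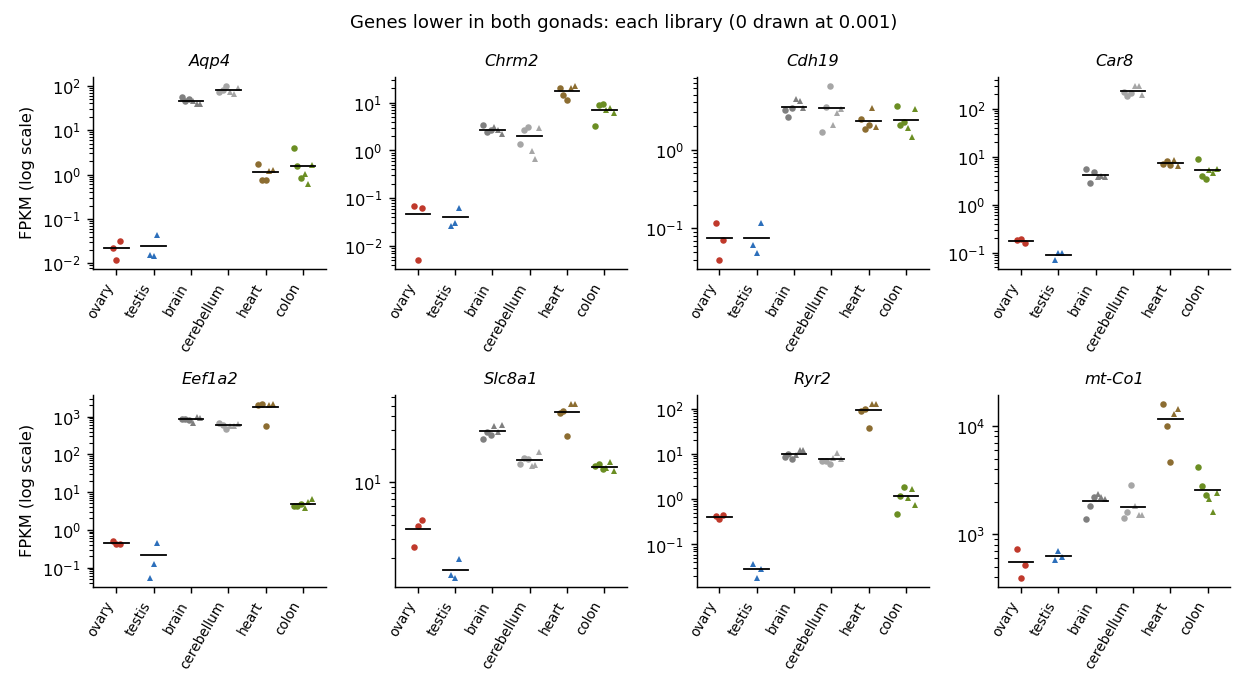
Levels of 8 lower genes in each library (FPKM, log scale; circles female, triangles male, bars tissue means). The gonad libraries of Aqp4, Chrm2, Car8 and Slc8a1 lie under every somatic library, and the colon libraries are nearest for Eef1a2 and Ryr2.

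In the circadian clock list 19 of 22 genes were called lower and 1 higher on the mean of both gonads (median −1.0), and 5 met the rule as lower. Bhlhe40, a repressor of the clock, was at 5.61, 6.73 and 8.85 FPKM in ovary, 2.67, 2.39 and 5.33 in testis and 11.3 to 30.4 in soma (median 17.1). The groups did not overlap, and the difference was −1.84 ± 0.15 (edgeR adjusted p = 3.96e-11). Rorb was at 0.0723 ± 0.0387 and 0.0613 ± 0.0487 FPKM under 0.198 ± 0.0856 in colon, and Arntl, the activator BMAL1, at 4.06 ± 1.36 and 3.5 ± 0.281 under 7.38 ± 3.24 in heart. The gene called higher was Csnk1d, the casein kinase that sets the period, at 20.1 ± 2.27 and 47.7 ± 2.08 FPKM, and it was named after its values were seen. The hour at which tissues were taken is not given in the sources used here.

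Glucocorticoid responsive genes went both ways, with 9 of 20 called lower and 6 higher (median −0.23). Klf9 was lower, at 17 ± 2.86 and 12.5 ± 1.04 FPKM under 29.8 ± 6.67 in colon, and Dusp1 also, at 5.44 ± 1.83 and 4.25 ± 0.786 under 9.74 ± 1.99 in cerebellum. Fkbp5, a co-chaperone of steroid receptors, was higher, at 36.1 ± 6.94 and 31.2 ± 3.37 FPKM over 18 ± 2.05 in colon. Lcn2, the iron-carrier lipocalin, met the rule as higher only by 6.34 ± 2.47 FPKM in ovary over 6.26 ± 4.92 in cerebellum, with 875 ± 231 in testis, and was named after its values were seen. Of 25 immediate early genes 13 were called lower and 6 higher (median −0.41). The interferon list had 10 of 30 lower and 7 higher at a median of −0.13, but 7 lower and 11 higher at 0.02 when libraries were scaled to total counts. MHC class I presentation had 6 of 21 lower and 4 higher at 0.02, but 1 lower and 6 higher at 0.18 under that scaling, and 4 lower and 5 higher at 0.05 with DESeq2's size factors. Without ovary library 1 it had 3 lower and 4 higher, and likewise without testis library 1. Fth1, the iron store ferritin heavy chain, was among the most abundant lower genes, at 944 ± 103 and 552 ± 114 FPKM under 2120 ± 561 in cerebellum.

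Balance between the gonads differed between the sets. Of the 2517 called higher genes, 237 (9.42%) were higher in ovary than in testis, 1337 (53.1%) were higher in testis and 943 (37.5%) passed neither way. Over all genes tested 26.5% were higher in ovary and 37.8% in testis. Of the 1579 called lower genes, 559 (35.4%) were higher in ovary, 115 (7.28%) in testis and 905 (57.3%) neither. The median ovary minus testis difference was −0.92 in the higher genes, 0.44 in the lower genes and −0.15 over all. Ovary and testis were within a factor of 2 in 1058 of the higher genes (42%) and 1072 of the lower genes (67.9%), beside 37% of all. The rule puts both gonads on the same side of soma, so it fixes part of this closeness, and the shares are descriptive. A testis level more than 16 times that of the ovary was found for 461 higher genes (18.3%), near the 18.7% of all genes tested, and the reverse for 23. In 1036 of the called higher genes the ovary mean was under 1 FPKM.

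**Figure D5:**
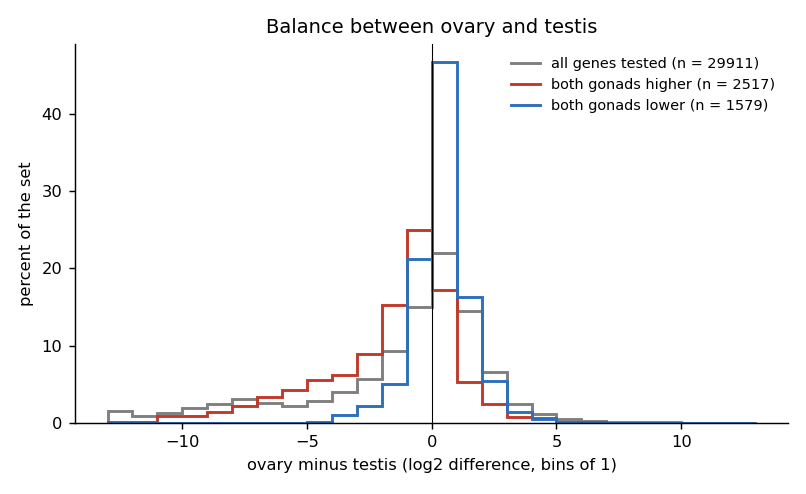
Distribution of the ovary minus testis log2 difference (x axis, bins of 1) as percent of each set (y axis) for all genes tested, the 2517 called higher and the 1579 called lower genes. All genes tested and the higher genes both have a long tail towards the testis, while most lower genes lie near 0.

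Higher genes on the X chromosome leaned further to the testis. Of 1016 tested X-linked genes 92 (9.06%) were called higher within the rule, inside the range of the autosomes (6.69% to 10.5%). Their median ovary minus testis difference was −2.88, against −1.42 to −0.42 for the called higher genes of single autosomes. The median of all tested X-linked genes was not taken, so whether this holds for X-linked genes in general cannot be told. These are descriptions over genes, which are not independent.

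Ovary and testis were also compared with soma of their own sex in fits that shared no library, a check chosen after seeing the data. The female fit called 18.2% of all genes higher and 17.8% lower, and the male fit 41.2% and 27.5%. Both called 2643 genes higher, which was 48.5% of the female calls and 21.4% of the male calls, and 3069 genes lower (57.8% and 37.4%). Across all genes tested, the 2 within-sex differences had the same sign in 55%, with a Pearson r of 0.19. Of the genes kept by the rule, 1596 of 2561 (62.3%) were called higher in both fits, beside 8.84% of all genes, and 1265 of 1824 (69.4%) were called lower in both, beside 10.3%. The rule used these same libraries, so the shares for the kept genes are descriptive.

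Levels of other cell types in the samples are given for the whole marker lists, and their part in the results was not tested. All 8 adipocyte markers were called higher, with summed levels of 40.8 to 477 FPKM in ovary, 339 to 488 in testis, 99.7 to 708 in colon and 1768 to 5897 in heart, and none of them met the rule. Female heart 3 held the 622 FPKM of Adipoq given above, while Fabp4 and Lpl were at 503 or more and 701 or more FPKM in every heart library. Of 7 smooth muscle markers 6 were called higher, with sums of 1068 to 2452 FPKM in ovary, 423 to 496 in testis and 4876 to 12393 in colon. Of 10 markers of oviduct and ciliated epithelium 8 were called higher and 1 lower. Their sums were 21.3 to 36.8 FPKM in ovary, 647 to 724 in testis and at most 22.2 in soma. Most of the testis sum was Rsph1 (543 to 609 FPKM) and Deup1 (76.9 to 85.8), genes of cilia, and most of the ovary sum was the keratin Krt7 (16.4 to 31.1), while the oviduct gene Ovgp1 was at 0.653 to 1.54 FPKM in ovary and 0.374 to 0.57 in testis. Of 10 blood and macrophage markers 7 were called lower and 2 higher. Their sums were 279 to 408 FPKM in ovary, 197 to 338 in testis and 258 to 688 in colon. In brain and cerebellum the sums were 468 to 3425, and in heart 6911 to 40742. Of 8 markers of endothelium and mesothelium 6 were called higher and 1 lower, with sums of 235 to 316 FPKM in ovary, 23.2 to 43 in testis, 10.3 to 21.2 in brain and cerebellum, 241 to 306 in heart and 483 to 1087 in colon. Most of the colon sum was the epithelial keratin Krt19 (444 to 1059 FPKM), while the endothelial gene Kdr was at 3.9 to 4.64 FPKM in colon, 17 to 19.3 in ovary and 1.88 to 3.11 in testis.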

How the data were processed

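The authors deposited whole-number read counts per gene for 29 libraries of 10 groups (a tissue and a sex), without normalization, and all count columns were used (0 unused). The submitters' processing notes name FastQC 0.11.8, HISAT2 2.0.5, MultiQC 0.9, featureCounts 1.6.3 and the build mm10. RNA was depleted of ribosomal RNA and libraries kept strand (dUTP). Uniquely mapped reads were counted on an annotation made by the authors from Iso-seq and ENSEMBL models. Joined loci (Iso-seq loci that span several listed genes) were left out of the lists, except that of mitochondrially encoded subunits. Whether strand was used in counting is not given in the sources used here. Libraries of a group are labelled as replicates and the labels do not say whether they came from separate animals. Library codes in the labels share digits across tissues, and what the codes stand for is not given, so p-values measure the spread between these libraries, which may be technical.

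Counts were analysed in R 4.3.3 with edgeR 4.0.16 (quasi-likelihood test, TMM scaling, low counts filtered by group), in 1 fit with a mean for each group, without replicate block. The rule used tissue means of TMM-normalised CPM over all libraries of a tissue, and the fit weighted both sexes of a somatic tissue equally. The 6 Iso-seq samples entered only through the annotation. The kept genes, gene lists and named genes were chosen with earlier results of these data known. Named genes were taken from the 10 protein-coding genes, 3 lncRNAs and up to 3 pseudogenes of each direction with the widest margin. Further sources were the 3 genes of each list with the widest margin, the 5 most abundant genes and the 2 genes on each side of the rule's edge. Not all of these appear in the text. Genes outside these sources are said to be named after their values were seen. Means under 3 reads over a tissue's libraries were set to that floor for margins. Alternatives were DESeq2 1.42.0, other scalings, filters, blocks and leaving out each library. The code was tested on simulated data.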

Additional observations from a re-analysis of the deposited data

Results flagged for a closer look

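The gonad minus soma difference was compared between females (ovary with female soma) and males (testis with male soma) for 35 named genes, and 5 passed edgeR's quasi-likelihood test of the difference itself. For 10 of the 35, Cst8 and Gm44344 among them, the approximate standard error was 613.69 or more, which reflects a very small F value. The test could not judge these genes. The female minus male value was 1.93 log2 units for Cyp11a1, −1.56 for Pabpc1, −1.16 for Gstm2, 1.01 for Car8 and −2.27 for Car4.

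Among 80 sets of 5 or 6 libraries of a tissue, 8 had a single library far from the others, and chance gives about 1 in 20 such sets. These libraries were female colon 2 for Aldh1a1 (267 FPKM), female heart 1 for Gstm2 (168 FPKM), female colon 1 for Aqp4 (3.92 FPKM), female brain 1 for Ddc (4.73 FPKM), female heart 3 for Eef1a2 (571 FPKM), male brain 1 for Inpp5j (6.96 FPKM), female brain 3 for the lncRNA Gm50138 (4.01 FPKM) and female cerebellum 3 for mt-Co1 (2872 FPKM). Gm50138 shares exon bases with Pde9a on the other strand. Only somatic tissues have 5 or 6 libraries, so no gonad library could be flagged. In each of these genes every gonad library remained on its side of all somatic libraries.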

How the results depend on the processing

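Scaling to total counts gave 10443 genes higher and 5729 lower (9453 and 6875 with TMM, and 0.32 against 0.18 as the median of all genes), 873 called lower genes within the rule, 601 and 137 genes in the pairwise test and 397 higher genes with more in ovary than testis. With DESeq2's Wald test the pairwise test passed 341 lower genes. A minimum change of 1 log2 unit left 6301 higher and 3837 lower genes and 144 pairwise lower genes. Non-overlap of all libraries gave 559 and 349 genes, and the single-sex fits 1596 higher genes. Leaving out each library in turn gave 8745 to 9782 genes higher and 6182 to 7022 lower, 2429 to 2653 and 1517 to 1672 within the rule, 267 to 393 and 157 to 280 in the pairwise test, and 180 to 266 higher genes with more in ovary and 1212 to 1374 with more in testis. Without ovary library 1 the pairwise test passed 331 and 159 genes. With the replicate number as a block the calls were 9309 and 6781, and 2510 and 1568 within the rule. The numbers did not pair libraries (median r = −0.00197 over 126 pairs, 5 of them over 0.1), and 5 of 29 libraries correlated best with their own number. Blocking by the leading digit of the library codes, separately in females and males, gave 9133 and 6761 calls. Libraries that shared the digit had a median r of 0.0141 over 53 pairs, 4 of them over 0.1. Same-sex libraries with different digits had a median of −0.00481 over 115 pairs, 2 of them over 0.1. Whether libraries that share a digit came from the same animal cannot be told from this. For single named genes 4285 values kept direction and side of the threshold and none reversed. Jund lost its call under total count scaling (−0.19, adjusted p = 0.145), and Scn9a without female heart 3 (−7.99) and without male heart 2 (−7.77). A few genes, such as the meiotic gene Hormad1 (6.17 ± 13382.63), had no read in ovary and standard errors too wide for a call.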

Other observations

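Some genes parted the gonads around the somatic tissues. Of all genes tested, 1079 (3.61%) were above every somatic mean in ovary and below every one in testis, and 966 (3.23%) the other way. In the fits of each sex, 1180 of 29911 genes were called higher in females and lower in males, and 1266 the reverse. Over all genes, the female fit called 18.2% higher and 17.8% lower, and the male fit 41.2% and 27.5%. The overlaps of these calls were not tested. The genes below were chosen after their values were seen, among protein-coding genes with at least 1 FPKM in every somatic mean. Ptgfr, the prostaglandin F receptor, was at 13.5 ± 3.55 FPKM in ovary, 0.00824 ± 0.00843 in testis and 1.01 to 2.02 in the somatic means. Podxl, a sialomucin of podocytes and vessels, was at 40.1 ± 8.95 and 1.25 ± 0.168 FPKM, with heart at 17.5 ± 4.94. Ptk7, a receptor of planar cell polarity, was at 18.9 ± 3.14 and 1.18 ± 0.314 FPKM. They were 10.52 ± 0.72, 5.01 ± 0.31 and 4.0 ± 0.25 log2 units higher in ovary than in testis (edgeR adjusted p = 3.06e-12, 5.12e-13 and 6.39e-13).

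On the other side, Clip4 was at 228 ± 10.3 FPKM in testis and 1.75 ± 0.482 in ovary, with 4.41 to 62.6 in the somatic means. Hspa4l, a heat shock protein of spermatogenic cells, was at 123 ± 8.4 and 2.67 ± 0.336 FPKM, and Tmc7 at 33.2 ± 2.79 and 0.0896 ± 0.0175. The ovary minus testis difference was −7.02 ± 0.36 for Clip4, −5.53 ± 0.22 for Hspa4l and −8.50 ± 0.35 for Tmc7 (edgeR adjusted p = 1.19e-14, 1.95e-16 and 3.35e-16).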
